A study of Mus musculus with 9 samples.

Results

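The 10 chemokine genes described here, Ccl19, Ccl21a, Ccl21b, Ccl25, Ccl17, Ccl22, Xcl1, Cxcl12, Cxcl9 and Cxcl10, are those by which the thymic medulla and cortex are known to attract lymphocytes and dendritic cells. They were chosen by name out of 23003 genes measured, and each was read from the RefSeq entry with the highest summed normalised count in the Aire pair. RNA was sequenced in 9 libraries of medullary thymic epithelial cells (mTEC) sorted from pooled thymi of B6 mice, 4-week-old per the methods, with 1 library per group. One pair held mTEChi, the mature cells with high surface MHC class II, of Aire-/- mice and mTEChi of WT mice. A second pair held WT mTEChi and WT mTEClo, the cells with low MHC class II, both sorted from the same mice. The remaining 5 libraries were WT mTEChi kept in actinomycin D at 1 uM, a blocker of transcription, for 0, 1.5, 3, 6 or 12 h, where the 1.5 h time comes from the sample labels and is not among the times in the treatment protocol. The sort took CD45-negative, Ly51-negative cells by their MHC class II level and used no epithelial marker.

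Chemokines are small secreted proteins that guide cells bearing the matching receptor. In the thymus, Ccl25 and Cxcl12 act through Ccr9 and Cxcr4 on incoming progenitors and immature thymocytes, Ccl19 and the Ccl21 proteins draw positively selected thymocytes into the medulla through Ccr7, and Ccl17 and Ccl22 act through Ccr4. Xcl1 attracts Xcr1-bearing dendritic cells and is known as a product of mTEC that needs Aire, whereas Cxcl9 and Cxcl10 are interferon-induced ligands of Cxcr3.

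The family is named after the spacing of cysteines near the start of the mature protein, and the coding windows below are shown because they place each gene in its class. They are 30 coding bases each, 5′ to 3′, from the gencode vM1 transcripts of build NCBIM37 (mm9), and capitals mark the cysteine codons.
Ccl19: gatgcggaagacTGCTGCctgtctgtgacc
Ccl25: gcctttgaagacTGCTGCctgggttaccag
Ccl17: gtaggccgagagTGCTGCctggattacttc
Ccl22: gaagacagtatcTGCTGCcaggactacatc
Cxcl12: agctaccgaTGCcccTGCcggttcttcgag
Cxcl9: aatgcacgaTGCtccTGCatcagcaccagc
Cxcl10: acggtccgcTGCaacTGCatccatatcgat
Xcl1: gaagagagtagcTGTgtgaacttacaaacc
The CC ligands carry adjacent cysteine codons, the CXC ligands have 1 codon between them, and Xcl1 has a single cysteine codon at this place.

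The Ccl21 genes are near-identical copies on chromosome 4, and this decides how far their reads can be told apart. The coding sequences of Ccl21a and Ccl21b are 402 bases long and differ at 2 of them, T84A and C194T, with positions counted from 1 at the first coding base, the base of Ccl21a first and that of Ccl21b last. The second difference changes the encoded residue, and the windows around it are shown with the changed codon in capitals.
Ccl21a: ccggcaatcctgttcTCAccccggaagcac
Ccl21b: ccggcaatcctgttcTTAccccggaagcac
Of the 821 windows of 50 bases in the Ccl21a transcript, the length to which reads were trimmed, 588 (71.6%) also occur in Ccl21b, and the copy Gm1987 has the same coding sequence as Ccl21a. The pairs held 22 entries for Ccl21a, Ccl21b, Ccl21c, Ccl21d, Gm10591 and Gm13304, which took only 6 distinct sets of reads. Gm1987 was not counted among these entries. The separate values of Ccl21a and Ccl21b below are therefore uncertain, and where both are counted among the 10 genes they rest largely on the same sequence.

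Reads over RefSeq entries ranged from 74161592 to 195444567 in the libraries of the pairs and from 1746825 at 12 h to 91610143 at 0 h in the actinomycin D series. The targeted gene was read first. Aire stood at 661 CPM (reads per 1000000 reads of the library) in the library labelled Aire-KO, against 259 CPM in WT mTEChi, and at 444 CPM in mTEChi of the second pair, against 14.4 CPM in mTEClo. These counts add all exons, so they check neither the label nor the loss of protein, and since its value columns are not named by sample, the order of the pair rests on how the study's code uses them. Among sorted-cell markers, the epithelial genes Krt8 and Epcam were at 311 CPM or more in all 4 libraries of the pairs. The cortical gene Psmb11 was at 7.85 CPM or less there. The cortical genes Tbata and Ctsl were higher, at 54.4 to 552 and 171 to 859 CPM, so Psmb11 does not stand for all cortical markers. With 1 library per group, a fold between 2 libraries has no replicate check and no p-value of its own, the model fits given below borrow their spread from WT mTEChi libraries, and the 95% intervals beside folds cover counting error only. Levels of RNA in sorted cells cannot tell fewer cells that make a transcript from less transcript per cell.

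The spread between libraries of one kind was judged from both WT mTEChi libraries of the pairs, which were made and counted alike. Ccl19, Ccl25, Ccl17, Cxcl12 and Xcl1 differed between them by 1.30-fold or less. Cxcl9 differed by 1.52-fold, Cxcl10 by 1.64-fold, Ccl22 by 1.79-fold, Ccl21b by 2.48-fold and Ccl21a by 2.68-fold. Over all entries the median was 1.30-fold, and 12.3% of entries differed by more than 2-fold. For the Ccl21 genes, then, a difference under 2.68-fold lay within the spread of WT mTEChi.

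In length-scaled units, the order of the chemokines differed between the sorts. In mTEClo, Ccl21a led at 2868 CPM per kb, followed by Ccl21b at 2168 and Cxcl10 at 369 CPM per kb. WT mTEChi of the Aire pair had Ccl21a at 389, Cxcl10 at 363, Ccl25 at 296 and Ccl21b at 285 CPM per kb, neighbours 1.04 to 1.23-fold apart, which is less than the spread of Ccl21a, Cxcl10 and Ccl21b between WT libraries. In mTEChi of the second pair Cxcl10 came first at 595 and Ccl25 next at 275 CPM per kb, while Cxcl12 stood lowest at 5.17 CPM per kb. Xcl1 was the lowest in the library labelled Aire-KO, at 0.0697 CPM per kb, and also in mTEClo, at 0.242 CPM per kb.

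**Figure D1:**
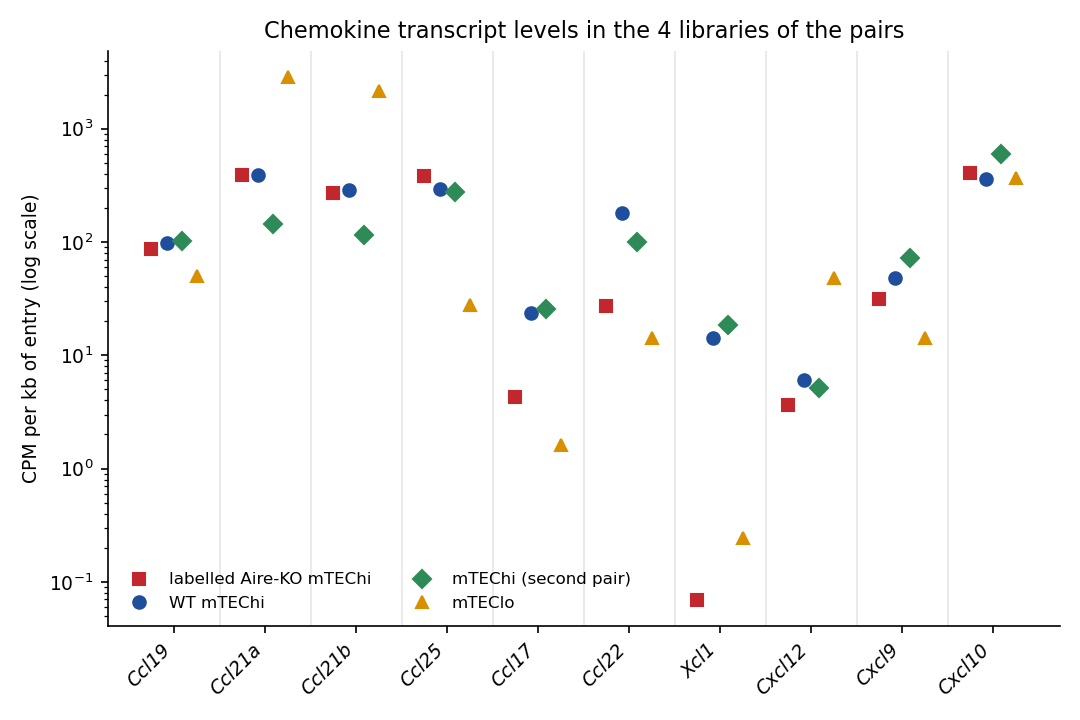
Levels of the 10 chemokine transcripts in the 4 libraries of the pairs, in CPM per kb of the entry on a log axis, with 1 point per library. The point of the library labelled Aire-KO lies apart from both WT mTEChi points for Ccl17, Ccl22 and Xcl1, and mTEClo lies above all others for Ccl21a, Ccl21b and Cxcl12.

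The Aire pair asks which transcripts depend on Aire in mTEChi. Of the 10 chemokines, 3 (Ccl17, Ccl22 and Xcl1) were at least 3-fold lower in the library labelled Aire-KO than in WT mTEChi, none was at least 3-fold higher, and 7 lay within 2-fold. Among 26761 entries with at least 10 normalised counts over the pair, 21.1% were at least 3-fold lower and 2.03% at least 3-fold higher, so a share of 3 in 10 was near the background. The same 3 genes were at least 3-fold below both WT mTEChi libraries of the pairs on the CPM scale, as were 19.5% of all 26706 entries compared in that way, and none of the 10 was at least 3-fold above both, as 0.281% were.

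Xcl1 (NM_008510, chromosome 1, 166861775 to 166865658, minus strand) had the largest difference. It had 5 reads (0.035 CPM) in the library labelled Aire-KO, against 744 reads (7.13 CPM) in WT mTEChi and 1818 reads (9.30 CPM) in mTEChi of the second pair. This made it 174-fold lower by normalised counts (95% interval 74.2 to 537), and the library labelled Aire-KO was near the limit of 3 reads that a count of 0 allows. In the second pair it was 73.0-fold higher in mTEChi than in mTEClo (38.3 to 160), where 9 reads were counted.

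Ccl17 and Ccl22, neighbouring ligands of Ccr4 on chromosome 8, were lower together in the library labelled Aire-KO. Ccl17 (NM_011332, 97334353 to 97335935, plus strand) had 2.21 CPM in the library labelled Aire-KO, against 12.2 CPM in WT mTEChi, and 13.2 CPM in mTEChi of the second pair, against 0.823 CPM in mTEClo. It was 4.70-fold lower in the first pair (4.15 to 5.33) and 15.3-fold higher in mTEChi than in mTEClo (11.9 to 20.0). Ccl22 (NM_009137, 97269490 to 97275599, plus strand) had 49.3 CPM in the library labelled Aire-KO, against 326 CPM in WT mTEChi, and 182 CPM in mTEChi of the second pair, against 25.6 CPM in mTEClo. It was 5.64-fold lower in the first pair (5.50 to 5.79) and 6.74-fold higher in mTEChi than in mTEClo (6.44 to 7.06). For both genes each WT mTEChi library of the pairs lay above the library labelled Aire-KO and above mTEClo. At 0 h of the actinomycin D series, counted in another way, Ccl22 stood at 25.0 CPM, below the library labelled Aire-KO and close to mTEClo.

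Markers of dendritic cells and macrophages, which can also make Ccr4 ligands, differed as well, though not all in one direction. Of 13 dendritic cell and macrophage markers, 8 were at least 3-fold lower in the library labelled Aire-KO, beside 21.1% of all entries. The 13 summed to 374 CPM there, against 695 CPM in WT mTEChi. In the second pair 6 of 13 were at least 3-fold higher in mTEChi, beside 11.8% of all entries. The 13 summed to 571 CPM in mTEChi, against 97.2 CPM in mTEClo. Zbtb46 was 1.47-fold higher in the library labelled Aire-KO, and Ptprc, Clec9a and Siglech stood at folds of 0.481, 0.385 and 0.629 in mTEChi over mTEClo, opposite to Ccl17 and Ccl22. Most of these sums was Lyz2, a lysozyme gene, at 336 CPM in the library labelled Aire-KO, against 574 CPM in WT mTEChi, while the dendritic cell gene Itgax was at 3.06 CPM or less in all 4 libraries. Their part in the Ccl17 and Ccl22 difference was not tested.

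The other 7 chemokines differed by less than 2-fold in the Aire pair. Ccl25 was 1.52-fold higher in the library labelled Aire-KO and Cxcl10 1.30-fold (1.29 to 1.32), and Cxcl9 stood at a fold of 0.77 (0.752 to 0.788). Ccl19 stood at 1.05-fold, Ccl21a at 1.17-fold and Ccl21b at 1.12-fold, and the 22 entries of Ccl21 copies ranged from 1.12 to 1.17-fold. Cxcl12 stood at a fold of 0.695 (0.638 to 0.757), with its other isoform entries at 0.595 and 0.491. The CPM of Ccl21b and Cxcl10 in the library labelled Aire-KO lay between those of both WT mTEChi libraries, and that of Ccl21a, at 338 CPM, was the same as in WT mTEChi of its pair.

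A count test with the spread of WT mTEChi gave fewer calls when it drew on the 0 h library as well. With all 3 untreated WT mTEChi libraries as replicates, edgeR called Xcl1 alone (adjusted p = 0.00841) among 8.21% of entries called lower and 0.081% called higher, with Ccl17 at adjusted p = 0.148 and Ccl22 at 0.610. With both WT mTEChi libraries of the pairs only, a fit added after the 0 h library was seen to stand apart, edgeR called Ccl17 (log2 fold change -2.19 ± 0.48 SE, adjusted p = 0.0178), Ccl22 (-2.03 ± 0.47, adjusted p = 0.0233) and Xcl1 (-7.51 ± 0.75, adjusted p = 0.000946) lower, among 10.9% of entries called lower and 0.726% called higher. DESeq2 on the 3 untreated libraries called Ccl17 (adjusted p = 0.0409) and Xcl1, among 13.7% of entries called lower and 0.284% called higher. These fits take the lone library to vary as WT mTEChi do, and that on both WT libraries of the pairs left 1 residual degree of freedom.

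The second pair asks how mature mTEChi differ from mTEClo. At least 3-fold higher in mTEChi were 5 of 10 chemokines (Ccl25, Ccl17, Ccl22, Xcl1 and Cxcl9), where 11.8% of 29212 entries were, and at least 3-fold lower were 3 (Ccl21a, Ccl21b and Cxcl12), where 12.8% were. Ccl19 and Cxcl10 lay within 2-fold. The same 8 genes were at least 3-fold apart from mTEClo in both WT mTEChi libraries of the pairs, where 9.54% of entries were higher in this way and 4.77% lower.

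Ccl21 was the most abundant chemokine transcript of mTEClo and much lower in mTEChi. Ccl21a (NM_011124, chromosome 4, 42786392 to 42787525, minus strand) had 126 CPM in mTEChi, against 2489 CPM in mTEClo, and was 20.7-fold lower in mTEChi. Ccl21b (NM_011335, chromosome 4, 41774204 to 41775337, plus strand) had 95.3 CPM in mTEChi, against 1802 CPM in mTEClo, and was 19.9-fold lower (19.6 to 20.2). Over the 22 entries of Ccl21 copies the difference ranged from 19.3-fold to 21.0-fold. The Aire pair libraries, at 338 CPM each for Ccl21a, also lay far below mTEClo. Ccl19 (NM_011888, chromosome 4, 42768057 to 42770109, minus strand), the other ligand of Ccr7, went the other way, with 73.6 CPM in mTEChi, against 36.2 CPM in mTEClo, a 1.94-fold difference (1.86 to 2.02).

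Cxcl12 (NM_021704, chromosome 6, 117118553 to 117131385, plus strand), the ligand of Cxcr4, had 9.72 CPM in mTEChi, against 90.2 CPM in mTEClo, and was 9.75-fold lower in mTEChi (9.27 to 10.3). Its other isoform entries were 7.71-fold and 8.60-fold lower. Markers of stromal cells were, for the most part, lower in mTEChi beside Cxcl12 and Ccl21. Of 9 fibroblast markers, 7 were at least 3-fold lower in mTEChi, with a summed 127 CPM, against 958 CPM in mTEClo. Beside these and the counts that follow, 12.8% of all entries were at least 3-fold lower. Postn, a matrix gene, stood at 9.24 CPM in mTEChi, against 211 CPM in mTEClo. Of 10 endothelial markers, 6 were at least 3-fold lower, with a summed 47.1 CPM, against 258 CPM in mTEClo, and of 6 tuft-like epithelial markers 5 were lower, with 194 CPM, against 1103 CPM. The fibroblast marker Pdgfrb went the other way, with 34.1 CPM in mTEChi, against 16.0 CPM in mTEClo. In the Aire pair, Postn was 3.90-fold higher in the library labelled Aire-KO and none of the fibroblast markers was at least 3-fold lower. There, 2.03% of all entries were at least 3-fold higher and 21.1% lower. The part of fibroblast, endothelial and tuft-like cells in the Cxcl12 and Ccl21 differences was not tested. The basal keratin genes Krt5 and Krt14 were lower in mTEChi too, Krt5 at 647 CPM, against 4014 CPM in mTEClo.

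Ccl25 (NM_009138, chromosome 8, 4325210 to 4360020, plus strand), known for the thymic cortex and the small intestine, had 291 CPM in mTEChi, against 29.3 CPM in mTEClo, 9.46-fold higher (9.07 to 9.88). The library labelled Aire-KO had 405 CPM, against 313 CPM in WT mTEChi. Of 8 cortical epithelial markers, 3 were at least 3-fold higher in mTEChi and 1 was lower, beside 11.8% and 12.8% of all entries. The 3 were Tbata at 6.66-fold, Enpep at 4.99-fold and Cd83 at 3.95-fold, and the lower one was Ctsl, at 5.28-fold. Together the 8 summed to 769 CPM in mTEChi, against 1114 CPM in mTEClo. The thymoproteasome gene Psmb11 and the protease gene Prss16 stood at 7.85 and 33.8 CPM in mTEChi, against 7.04 and 34.8 CPM in mTEClo. The part of cortical cells in the Ccl25 difference was not tested.

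The ligands of Cxcr3 split in this pair. Cxcl9 (NM_008599, chromosome 5, 92750357 to 92757105, minus strand) had 212 CPM in mTEChi, against 41.6 CPM in mTEClo, 4.84-fold higher (4.67 to 5.03). Cxcl10 (NM_021274, chromosome 5, 92775664 to 92777915, minus strand) had 654 CPM in mTEChi, against 406 CPM in mTEClo, 1.53-fold higher (1.51 to 1.55), which was less than the 1.64-fold between both WT mTEChi libraries of the pairs. Of 16 interferon signalling genes, 1 was at least 3-fold higher and 5 were at least 3-fold lower in mTEChi, beside 11.8% and 12.8% of all entries. Their median fold was 0.788, beside 1.01 over all entries. Irf7 and Isg15, both interferon-induced, were 7.38-fold and 4.85-fold lower in mTEChi, the direction opposite to Cxcl9, and Irf8 stood at 358 CPM in mTEChi, against 85.1 CPM in mTEClo.

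In edgeR with both WT mTEChi libraries of the pairs, the same 8 chemokines were called, the adjusted p ranging from 0.00249 for Xcl1 and Cxcl12 to 0.0170 for Cxcl9, among 4.73% of entries called lower and 7.63% called higher in mTEChi. With the 0 h library as a further replicate, edgeR called Ccl21a (adjusted p = 0.0375), Ccl25 (0.0436) and Xcl1 (0.0375), among 1.44% of entries called lower and 1.90% called higher, and DESeq2 called 7, without Cxcl9, among 3.66% called lower and 6.99% called higher.

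**Figure D2:**
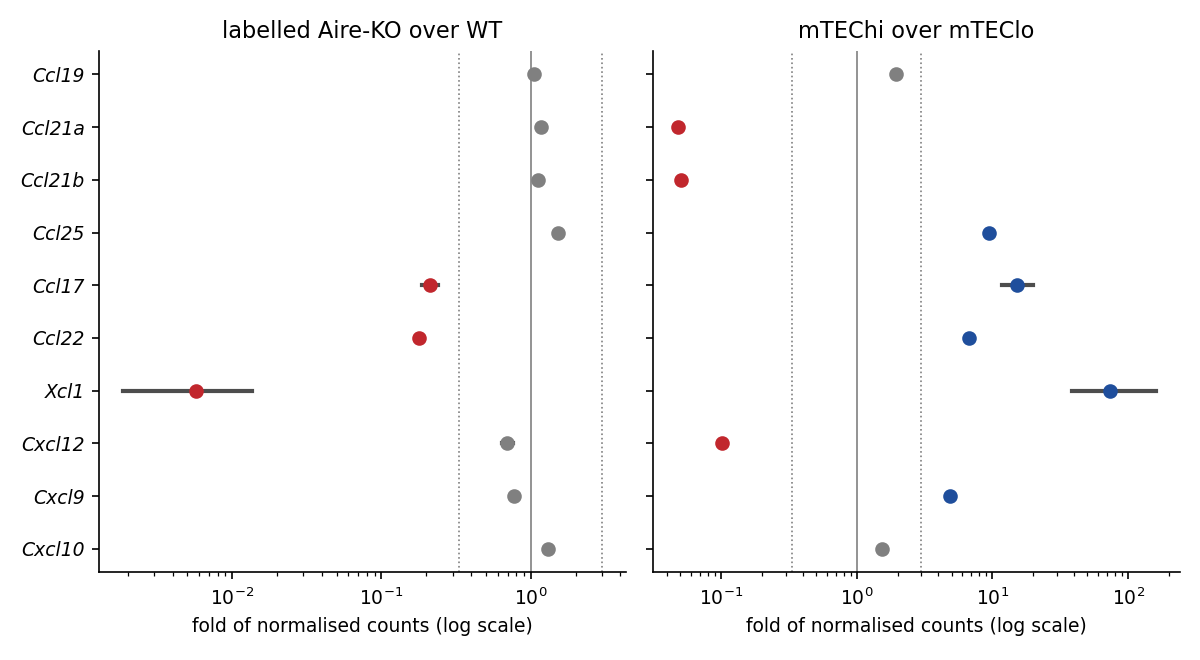
Folds of normalised counts on log axes, the library labelled Aire-KO over WT mTEChi on the left and mTEChi over mTEClo on the right, with 1 point per chemokine and lines for the exact 95% interval of counting error. Dotted lines mark 3-fold; 3 genes lie below it on the left, from 0.00575 for Xcl1 to 0.213 for Ccl17, and 3 below and 5 above on the right.

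The other chemokine ligands were mostly lower in the library labelled Aire-KO. Of 29 such genes, 27 had at least 10 normalised counts, and 20 of these were at least 3-fold lower and none higher, with a median fold of 0.209, beside 0.978 over all entries, of which 21.1% were at least 3-fold lower. Other markers were at least 3-fold lower there too. Of tuft-like epithelial ones these were 5 of 6, with a summed 148 CPM in the library labelled Aire-KO, against 671 CPM in WT mTEChi. Of endothelial ones they were 6 of 10, with 28.9 CPM, against 71.6 CPM. In mTEChi of the second pair, also WT, the sums were 194 CPM for tuft-like and 47.1 CPM for endothelial markers. Both values lay between those of the Aire pair, so part of each difference was within the spread of WT mTEChi. The part of tuft-like and endothelial cells, and of dendritic cells and macrophages, in the ligands' difference was not tested. The eosinophil attractant Ccl11 had 54.9 CPM in the library labelled Aire-KO, against 30.3 CPM in WT mTEChi, and 23.8 CPM in mTEChi of the second pair, against 507 CPM in mTEClo. Ccl20, the ligand of Ccr6, had 16.5 CPM in the library labelled Aire-KO, against 163 CPM in WT mTEChi, and 85.7 CPM in mTEChi of the second pair, against 46.0 CPM in mTEClo. Ccl9 was at a fold of 0.164 in the Aire pair and Cxcl2, which attracts neutrophils, at 0.342, while Cxcl16, the ligand of Cxcr6, was at 1.06. Not all of the 20 were also 3-fold below mTEChi of the second pair. Ccl9 had 30.2 CPM in the library labelled Aire-KO, against 84.9 CPM there. In the second pair 11 of the 27 were at least 3-fold higher in mTEChi and 3 were lower, beside 11.8% and 12.8% of all entries.

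Several receptors for these ligands were read in the same sorted cells. Ccr7, the receptor of Ccl19 and Ccl21, had 72.0 CPM in the library labelled Aire-KO, against 86.7 CPM in WT mTEChi, and 106 CPM in mTEChi of the second pair, against 7.87 CPM in mTEClo. Ccr4, the receptor of Ccl17 and Ccl22, had 48.3 CPM in the library labelled Aire-KO, against 85.7 CPM in WT mTEChi, and 73.0 CPM in mTEChi of the second pair, against 4.46 CPM in mTEClo. Both were more than 12-fold higher in mTEChi than in mTEClo, at 12.8-fold for Ccr7 and 15.6-fold for Ccr4, which is the direction of Ccl17 and Ccl22 and opposite to Ccl21. Xcr1 stood at 3.67 CPM or less, Cxcr3 at 0.364 CPM or less and Ccr9 at 5.50 CPM or less in the 4 libraries. Cxcr4 had 22.1 CPM in mTEChi, against 9.49 CPM in mTEClo. Of the scavenging receptors, Ackr4, which takes up Ccl19, Ccl21 and Ccl25, had 6.27 CPM in mTEChi, against 28.1 CPM in mTEClo, and Ackr3, which takes up Cxcl12, had 6.10 CPM in mTEChi, against 13.8 CPM in mTEClo. Of 23 receptors, 9 were at least 3-fold lower in the library labelled Aire-KO and 1 was higher, beside 21.1% and 2.03% of all entries.

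Genes of the NF-kB and TNF receptor inputs that mTEC need to mature were all within 2-fold in the Aire pair and, for the most part, higher in mTEChi than in mTEClo. Of 16 genes, none was at least 3-fold apart in the Aire pair, where 21.1% of all entries were lower and 2.03% higher. Their median fold there was 1.39. In the second pair 1 was at least 3-fold higher in mTEChi, Cd40, at 208 CPM, against 21.9 CPM in mTEClo, where 11.8% of all entries were. The median fold in the second pair was 1.78, with 6 of 16 genes within 2-fold, and Traf6 at 2.99-fold, Nfkbia at 2.96-fold, Relb at 2.30-fold and Nfkb2 at 2.18-fold lay below the limit. Relb was at 287 CPM in the library labelled Aire-KO, against 183 CPM in WT mTEChi, and Nfkb2 at 406 CPM, against 294 CPM.

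**Figure D3:**
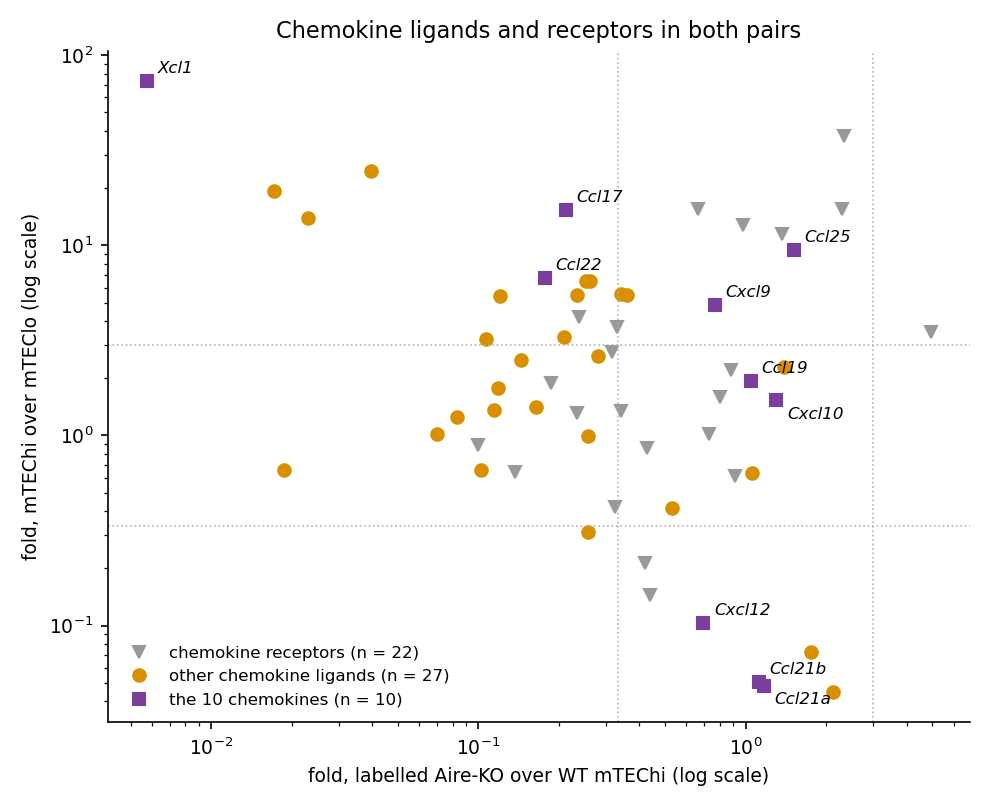
Fold in the Aire pair (library labelled Aire-KO over WT mTEChi, horizontal) against fold in the second pair (mTEChi over mTEClo, vertical), both of normalised counts on log axes, for the 10 chemokines, 27 other ligands and 22 receptors, with Cxcr1 left out because it had 0 reads in the library labelled Aire-KO. Dotted lines mark 3-fold; Xcl1, Ccl17 and Ccl22 lie at the upper left and Ccl21a, Ccl21b and Cxcl12 at the lower middle.

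Promoter letters were searched because Cxcl9, Cxcl10, Ccl19 and Ccl22 are known targets of interferon or NF-kB signals. RefSeq promoters of build GRCm38.p6, running from 250 bases before to 50 after the start, were found for all 10 genes. An interferon-response pattern, GAAA repeated after a gap of 2 bases of any kind and read on both strands like the other patterns, was in Ccl19 and Cxcl10 and in 3.44% of 32851 promoters, and both windows are shown with the match in capitals.
Ccl19: ttttgggacaGAAAGTGAAAgctcaaggca
Cxcl10: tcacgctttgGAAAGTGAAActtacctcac
They lie at chr4:42756554-42756583 and chr5:92349083-92349112, both on the minus strand, with matches 208 and 213 bases before the start. The letters TTCNNNGAA, which STAT proteins can bind, were in Ccl17 and in 8.30% of promoters. An NF-kB-like pattern, GGG and CC with 5 bases of any kind between them, was in 5 of the 10 genes, a share near the 50.8% of all promoters. Binding was not measured.

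In the actinomycin D series, levels are CPM, a share of the RNA left in each library, so a higher CPM is a larger share of that RNA and says nothing of the amount made or lost. The files of this series were counted in another way than the pairs. They held 0 non-coding entries, against 3634 in the pairs, and the median log2 ratio of 0 h over WT mTEChi of the pairs went with the coding share of the transcript, from -1.81 at 0 to 10% coding to 1.01 at 90 to 100% coding, over 15601 entries whose transcript could be matched (83.0%). The ratio between both WT mTEChi libraries of the pairs stayed between -0.08 and 0.05 over the same classes. Cxcl12, 14.2% coding, had 1.20 CPM at 0 h, against 11.4 and 9.72 CPM in WT mTEChi of the pairs, and its 3 isoform entries had 110, 121 and 113 reads there. A level at 0 h and one of the pairs are therefore not on the same scale, which also bears on the fits that took the 0 h library as a WT mTEChi replicate.

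**Figure D4:**
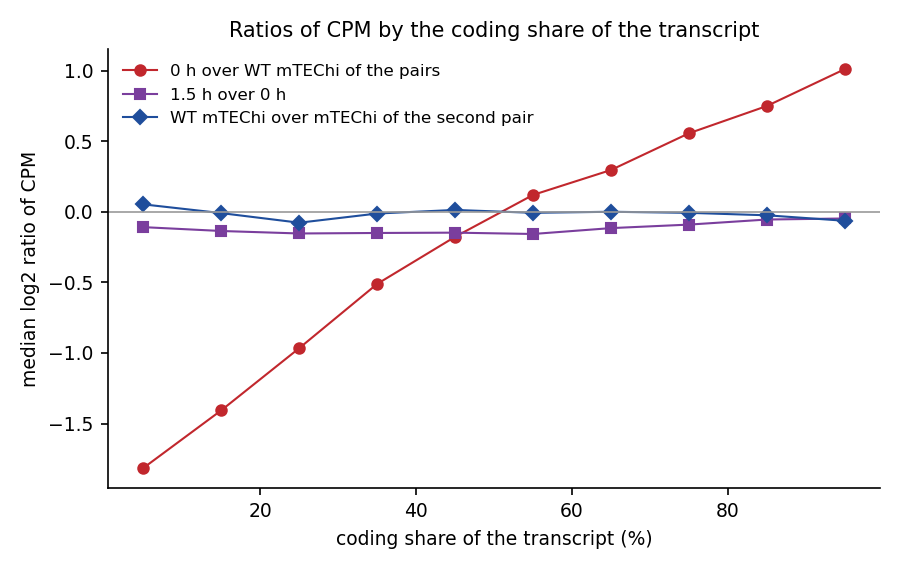
Median log2 ratio of CPM (vertical) in 10 classes of the coding share of the transcript in percent (horizontal), for 0 h over the mean of WT mTEChi of the pairs, 1.5 h over 0 h and WT mTEChi over mTEChi of the second pair. The first ratio runs from -1.81 to 1.01, while the other lines stay between -0.16 and 0.05.

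Of the 10 chemokines, 9 stood above 0 h at 12 h, Cxcl10 being the exception, where 33.2% of 23850 entries did. The count was 7 at 1.5 h (37.4% of entries), 5 at 3 h (40.4%) and 7 at 6 h (34.9%). In order of time, the median log2 change of the 10 was 0.18, 0.27, 0.58 and 1.26, beside -0.13, -0.18, -0.54 and -0.60 over all entries. Weakly read entries are among those, and 26.9% of the entries of the series had 0 reads at 12 h. The 10 genes were not matched to them by depth, which limits both comparisons. The treated libraries were made with SMARTer and Nextera kits and read from 1 end, and the 0 h library with a TruSeq kit and read from both, so treatment and kit cannot be told apart in a change from 0 h.

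Among treated libraries, which share a kit, all 10 slopes over hours were positive, as were 42.2% of 20652 entries tested. Without the 12 h library 8 of the 10 were positive (41.9% of entries), and without the 3 h library 9 were (44.5%). With all treated libraries, none of the 10 passed edgeR's test at an adjusted p of 0.05, and neither did any other entry (0%). At an unadjusted edgeR p under 0.05 there were 4 of the 10 (Ccl19, Ccl21a, Ccl21b and Xcl1) and 9.18% of all entries. DESeq2 called 3 of the 10 higher (Ccl19, Ccl21a and Ccl21b). Of the 24299 entries to which it gave a p-value, it called 1.11% higher and 0.621% lower. It gave no adjusted p to Ccl17, Ccl22, Xcl1 and Cxcl12, so these could not be called.

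Xcl1 had the steepest slope, 0.32 ± 0.09 log2 units per hour (SE, edgeR adjusted p = 0.392). Its levels from 0 to 12 h were 7.13, 8.14, 3.23, 36.0 and 53.8 CPM, the last from 94 reads (95% interval 43.5 to 65.9 CPM). The values at 6 and 12 h lay far above the others, and the 3 h value, from 45 reads, was the lowest. Without the 6 h library the slope was 0.31 and passed the test (edgeR adjusted p = 3.54e-07). That of Ccl19, at 0.13, passed it too (edgeR adjusted p = 0.0222), in a fit that left 1 residual degree of freedom. The fit called 3.51% of entries higher and 5.65% lower. With the 1.5, 3 or 12 h library left out instead, neither gene passed, Xcl1 having edgeR adjusted p = 0.9999, 0.99995 and 0.058.

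Ccl19 had 44.4, 69.1, 67.7, 113 and 155 CPM over these 5 times, with a slope of 0.13 ± 0.04 per hour (edgeR adjusted p = 0.426). Ccl17 had 6.24, 10.2, 12.5, 17.3 and 25.2 CPM at the same times, each above the last, with 44 reads at 12 h. Ccl22 had 25.0, 36.7, 44.5, 43.6 and 56.1 CPM. For these 3 genes every treated library lay above 0 h.

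The other 6 genes had at least 1 treated library below or within counting error of 0 h, or no order over hours. Ccl21a had 229, 167, 148, 292 and 310 CPM from 0 to 12 h and Ccl21b 355, 211, 173, 335 and 370 CPM, so that the 1.5 and 3 h libraries lay below 0 h for both. The 12 h library lay above 0 h for Ccl21a, while for Ccl21b its interval (342 to 399 CPM) covered the 0 h level. Cxcl9 had 63.9, 71.9, 61.3, 73.1 and 90.4 CPM and Cxcl10 314, 260, 199, 268 and 241 CPM, every treated library of Cxcl10 being below 0 h. Ccl25 had 204 CPM at 0 h and 482, 359, 420 and 519 CPM in the treated libraries, with no order over hours. Cxcl12 had at most 47 reads in a treated library and 0 at 6 h, which by counting error alone allows up to 0.266 CPM. The 6 h library had 31.5% of entries at 0, more than the 26.9% at 12 h, although it held more reads (11295960 against 1746825). A 0 at 6 h therefore need not mean a level under that limit, and no course could be read for Cxcl12.

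**Figure D5:**
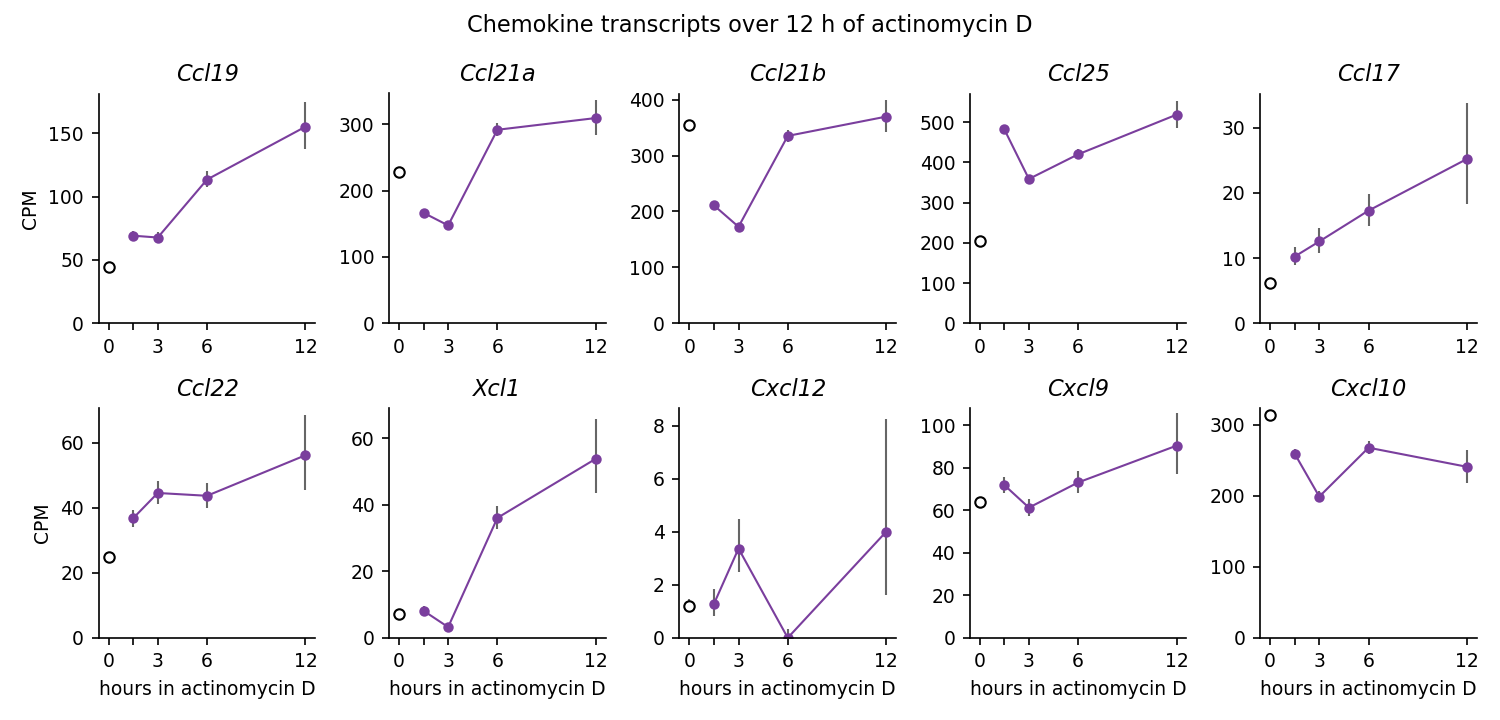
CPM of the 10 chemokine transcripts over hours in actinomycin D, with bars for the exact 95% interval of counting error. Open points are the 0 h library, made with another kit, and filled points the 4 treated libraries; Xcl1 runs from 3.23 CPM at 3 h to 53.8 CPM at 12 h.

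Over all 9 libraries, likeness of pattern was measured as the root mean square difference of log2(CPM + 0.5) after each gene was centred on its own mean, among 10098 genes with at least 10 CPM on average. The nearest genes were H2-Oa (0.26) and Nkx2-6 (0.27) for Ccl25, C1qb (0.34) and Krt81 (0.34) for Ccl17, Igf2 (0.53) and Lyz1 (0.56) for Ccl22, and Pla2g1b (0.47) and Hbb-y (0.51) for Xcl1. For Ccl19 they were Dctn3 (0.15) and Churc1 (0.16), for Cxcl12 Cav1 (0.72) and Rnf150 (0.72), for Cxcl9 Tnfsf15 (0.25) and Prnd (0.29), and for Cxcl10 Tmem33 (0.12) and Seh1l (0.16). Ccl21a and Ccl21b were nearest to their own copies, at 0 because the same reads were counted, and beyond those Ccl21a was nearest to Myl9 (0.39). The chemokines' own patterns differed in size, with a root mean square of 0.50 for Cxcl10 and 0.59 for Ccl19, against 2.01 for Cxcl12 and 2.14 for Xcl1. A smaller distance for a flatter gene is therefore not a closer match than a larger distance for a more variable one. All 9 points share the libraries and their depths, and the measure is a description. The actinomycin D points are not on the scale of the pairs, so each pattern also carries that offset, which went with coding share.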

How the data were processed

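RNA was measured in 9 libraries, grouped by the labels. Per the labels and methods, the authors filtered reads with CASAVA, trimmed the pairs to 50 bases, aligned them to mm9 with Bowtie 1.0.0 and counted reads wholly inside RefSeq exons with bedtools, without strand; how reads that fit several places were assigned is not given in the sources used here. For the pairs the deposited signal is the count divided by a DESeq size factor (normalised counts); whole reads were recovered for 100% of values within 0.1. The authors deposited raw counts for the 5 libraries of the drug series. The deposited folds and p-values of the authors' own comparisons and 2 unmatched columns of per-sample values were not used.

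Folds of normalised counts have exact intervals from reads, with classes at 3-fold and at least 10 normalised counts per pair. Slopes over hours were tested with edgeR 4.0.16 (TMM factors, expression filter, Benjamini-Hochberg adjustment over all entries at 0.05), with DESeq2 1.42.0 as an alternative, in R 4.3.3. The SE of an edgeR estimate is an approximation, the absolute estimate divided by the square root of the F statistic of its test. Log2 changes from 0 h used CPM with 0.5 reads added. Counts of 0 allow up to 3 reads. Coordinates are mm9 from gencode vM1, names from RefSeq. The text names all 10 chemokines, up to 4 markers per list and the 2 nearest genes per chemokine. Of the chemokine, receptor, NF-kB and interferon lists it names up to 5 genes by highest mean CPM, plus the chemokines' receptors. Aire, Epcam, Psmb11, Prss16, Itgax, Isg15, Enpep, Cd83, Ptprc, Clec9a, Siglech, Pdgfrb and Traf6 were added after their values were seen. The 10 chemokines and the lists were chosen with earlier results of these data known. Nothing says that libraries of one group came from separate experiments beyond their labels.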

Additional observations from a re-analysis of the deposited data

How the results depend on the processing

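In the Aire pair, 3 chemokines were apart by CPM, at a 2-fold limit and with all entries of a symbol summed, in each case Ccl17, Ccl22 and Xcl1. Dropping the minimum could not alter the count in either pair, since all 10 chemokines passed it. With 3 untreated WT mTEChi libraries as replicates, edgeR called 1 and DESeq2 called 2, and leaving out each WT mTEChi library in turn gave 1 to 3. In the second pair, 8 were apart under the same scalings and limits, edgeR with 3 WT mTEChi libraries called 3, DESeq2 called 7, and leaving out each gave 2 to 8. In both pairs the highest counts were without the 0 h library. For the slopes, DESeq2 called 3 of the genes to which it gave an adjusted p, and leaving out each treated library in edgeR gave 0 to 2. The number above 0 h at 12 h stayed at 9 with 1 read added and with TMM factors. A fit within both WT mTEChi libraries of the pairs, and the limit of both libraries, were chosen after seeing the data and gave 3 and 8. No paired analysis was possible because the groups compared share fewer than 2 replicate numbers. The depth limits Xcl1 in the library labelled Aire-KO (5 reads), Cxcl12 in treated libraries and all values at 12 h. Across the single-gene values, 86 moved beyond the limits set, 129 did not, 5 newly passed a test and no called value changed direction.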

Other observations

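Among other ligands, picked here after their values were seen, 3 shared the pattern of Xcl1. Ccl1, the ligand of Ccr8, had 0.196 CPM in the library labelled Aire-KO, against 5.82 CPM in WT mTEChi, and 8.35 CPM in mTEChi of the second pair, against 0.324 CPM in mTEClo. The platelet chemokine Ppbp had 0.0699 CPM in the library labelled Aire-KO, against 4.76 CPM in WT mTEChi, and 7.10 CPM in mTEChi of the second pair, against 0.351 CPM in mTEClo. Cxcl15, known from lung, had 0.035 CPM in the library labelled Aire-KO, against 1.78 CPM in WT mTEChi, and 2.55 CPM in mTEChi of the second pair, against 0.175 CPM in mTEClo. The receptors Ccr6 and Ccr10 were 37.6-fold and 15.6-fold higher in mTEChi than in mTEClo, and Ackr2, a scavenger of CC chemokines, was 4.92-fold higher in the library labelled Aire-KO than in WT mTEChi.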
